A study of Mus musculus with 15 samples.

Results

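The genes described here act in fatty acid uptake, in the handling of lipoprotein triglyceride, or in the control of such genes. They are Cd36, Slc27a2 and Slc27a4 at the entry step, the binding proteins Fabp1, Fabp2 and Fabp4 inside the cell, the lipases Lpl and Lipc, the lipoprotein receptor Vldlr, and the nuclear receptor Pparg. They were chosen by symbol with earlier results of these data known, so counts and medians over them are descriptions only. All 10 were found among the 23420 genes of every count table. The study of fatty liver and the handling of the solvent tetrachloroethylene sequenced polyadenylated RNA in 15 libraries, 5 per diet. The tissue was pulverized liver (left lobe), and the mice were males of the inbred strain C57Bl/6J. The MCD group ate 31% fat without methionine, choline and folate, and the HFD group 31% fat with no such lack. The BD group ate a base diet of 4% fat. All 3 groups had received the vehicle alone, 5% Alkmauls El-620, an emulsifier, in saline, and were sampled 24 h later, so no liver described here was exposed to the solvent. For age and time on diet, no value is given in the sources used here. Whether every library is a separate animal is not labelled; p-values then measure only how these samples spread, which may be technical. Levels are given as CPM, gene counts relative to the TMM-scaled library total.

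Free fatty acids released from adipose tissue, and those freed from lipoprotein triglyceride by lipases, enter hepatocytes across the plasma membrane with the help of Cd36 and of the Slc27 transporters, which also activate them to acyl-CoA. Inside the cell, fatty acid binding proteins hold them in solution; Fabp1 is the main liver form, Fabp2 the intestinal form, and Fabp4 the form of adipocytes and macrophages. Lpl acts on the wall of capillaries in muscle and fat and is low in adult hepatocytes, whereas Lipc, hepatic lipase, is made by hepatocytes. Vldlr binds triglyceride-rich lipoproteins beside Lpl, and Pparg, the master regulator of adipocytes, is induced in fatty livers and is known to act on Cd36, Fabp4 and Lpl.

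Between 3704642 and 23131089 counts fell on genes in each library, with 13652 to 16090 genes detected. All 10 hepatocyte markers were detected on each diet, with summed levels of 119450 to 160580 CPM in MCD, 116420 to 139320 CPM in HFD and 130680 to 151000.0 CPM in BD livers. HFD replicate 2 stood apart from its diet: on the first principal component (37.1% of the variance) it lay at -28.4, among the MCD libraries (-39.4 to -15.6), while the other HFD libraries lay at 0.415 to 12.7. Differences of the 10 genes that changed their call, or whose fold change moved by over 1.5 times, without it are given with and without it. The sample numbers of the MCD and HFD libraries adjoin in the labels and those of the BD libraries stand apart from them, and clock genes differed in the same way. Of 18 tested, 9 were called higher and 6 lower in MCD against BD, and 10 higher and 4 lower in HFD against BD. In MCD against HFD 0 were called (unadjusted p under 0.05 for 2, lower; 1 lower by DESeq2, 0 by limma-voom; 1 called without MCD replicate 4). Cry1, a repressor of the clock, had log2 fold changes of -1.62 ± 0.17 in MCD against BD (adjusted p = 6.06e-06) and -1.61 ± 0.17 in HFD against BD (adjusted p = 9.40e-06), and Nr1d2, another clock repressor, 1.52 ± 0.13 in MCD (3.59e-07) and 1.33 ± 0.13 in HFD (2.39e-06). The part of sampling time or batch in the differences from BD was not tested.

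In MCD livers 5 of the 10 genes were higher than in BD livers and 1 was lower: Cd36, Fabp1, Fabp2, Fabp4 and Lpl rose, and Lipc fell. Among all genes tested, 21.4% were called in this comparison, 12.8% higher and 8.64% lower. In HFD livers 3 genes were higher than in BD livers, Fabp1, Fabp2 and Slc27a2, and 0 were lower (1 at an unadjusted p under 0.05, 0 by DESeq2 and 0 by limma-voom), where 6.92% of all genes were called, 3.65% higher and 3.27% lower. Between the diets of equal fat content, MCD against HFD, Lpl alone was called higher, beside 3.15% of all genes called, 2.22% higher and 0.927% lower. Of the 10 genes 0 were called lower (0 at an unadjusted p under 0.05, 0 by DESeq2 and 0 by limma-voom). A call here is an adjusted p under 0.05 in edgeR's quasi-likelihood test over 12193 genes. These shares of all genes called are the background for the clock genes above and for every gene list below.

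The median log2 fold change of the 10 genes was 0.72 in MCD against BD, 0.36 in HFD against BD and 0.38 in MCD against HFD, beside medians of -0.03, -0.01 and -0.0033 over all genes tested. Library values did not overlap between the diets for 5 of the 10 genes in MCD against BD (15.4% of all genes), for 3 in HFD against BD (7.05%), and for 0 in MCD against HFD (4.32%). Together the genes took 0.730% to 1.03% of the gene counts of MCD libraries, 0.883% to 1.02% of HFD libraries and 0.489% to 0.595% of BD libraries, and Fabp1 supplied 64.2% to 77.6% of their counts in each library. The comparisons with BD share the same 5 BD libraries. Without HFD replicate 2, MCD against HFD called 4 of the 10 genes higher (Cd36, Fabp4, Lpl and Pparg) in place of 1. The share of all genes called in that comparison became 10.1%, 6.8% higher, in place of 3.15% and 2.22%. The count of the 10 genes became 7 in place of 6 in MCD against BD, where 21.6% of all genes were then called, and was 3 in HFD against BD, where 5.31% were.

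**Figure D1:**
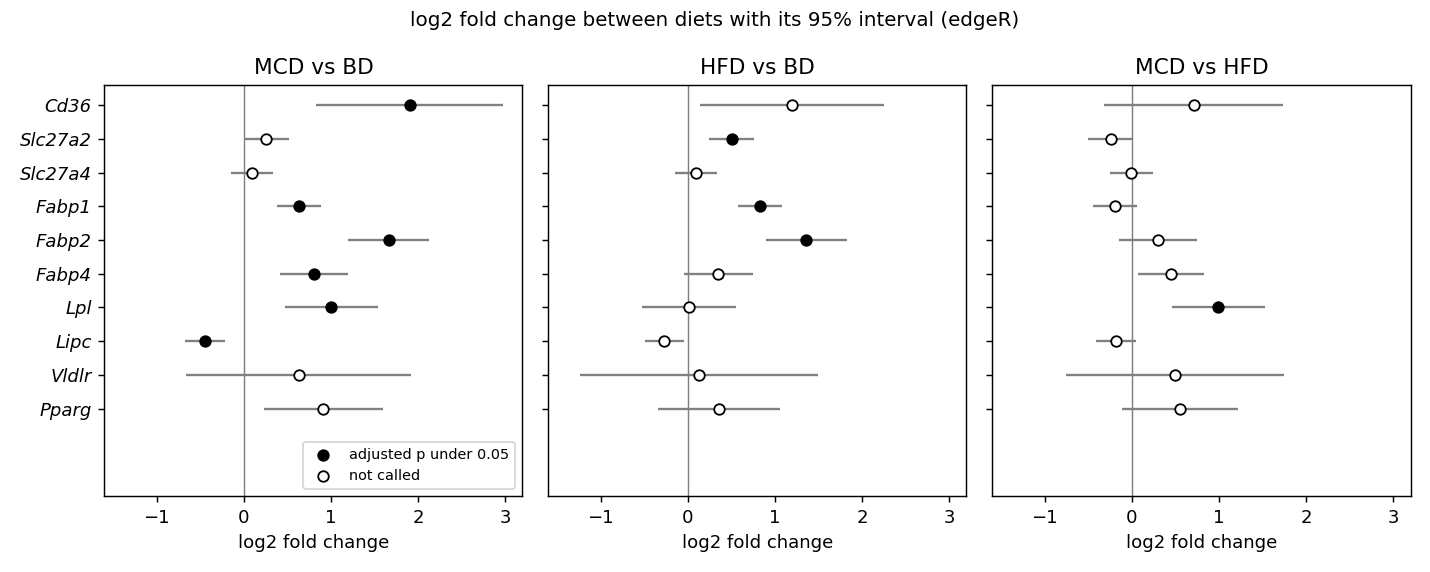
The log2 fold change of each of the 10 genes (points) with its 95% interval (lines) is plotted for MCD vs BD, HFD vs BD and MCD vs HFD; filled points passed an adjusted p under 0.05 in edgeR. Fabp1 and Fabp2 are filled against BD on both diets, Lpl is filled in MCD vs BD and MCD vs HFD, and Lipc is the filled point below 0. The interval of Vldlr is the widest in each panel.

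The stretches upstream of 4 genes are shown because Cd36, Fabp1 and Fabp2 rose together in MCD livers while Lipc fell, and because several of these genes are textbook targets of PPAR receptors, which bind DR1, a direct repeat of the unit AGGTCA with 1 base between the copies. Of the 2 starts of Lipc only the upstream one is printed, and the downstream one, which holds a match to the repeat, is described below. The sequences are from RefSeq (GRCm38.p6), 5′ to 3′ on the gene's strand, without bases of annotated exons; capitals mark the best match to the repeat with at most 2 mismatches, searched on both strands.
Cd36, chr5:17835897-17836146, minus strand: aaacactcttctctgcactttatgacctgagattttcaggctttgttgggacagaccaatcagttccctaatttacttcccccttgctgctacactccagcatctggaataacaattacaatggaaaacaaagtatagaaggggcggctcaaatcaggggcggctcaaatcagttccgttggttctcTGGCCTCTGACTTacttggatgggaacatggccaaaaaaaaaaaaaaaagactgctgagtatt
Fabp1, chr6:71199629-71199826, plus strand: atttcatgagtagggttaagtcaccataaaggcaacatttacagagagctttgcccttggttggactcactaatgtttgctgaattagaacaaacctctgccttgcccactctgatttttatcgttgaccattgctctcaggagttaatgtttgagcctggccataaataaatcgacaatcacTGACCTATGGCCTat
Fabp2, chr3:122894822-122895071, plus strand: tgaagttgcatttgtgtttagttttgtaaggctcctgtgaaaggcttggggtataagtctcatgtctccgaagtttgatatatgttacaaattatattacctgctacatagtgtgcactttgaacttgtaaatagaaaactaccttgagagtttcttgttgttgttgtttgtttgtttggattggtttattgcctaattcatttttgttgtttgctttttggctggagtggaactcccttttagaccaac
Lipc, upstream start, chr9:70952227-70952471, minus strand: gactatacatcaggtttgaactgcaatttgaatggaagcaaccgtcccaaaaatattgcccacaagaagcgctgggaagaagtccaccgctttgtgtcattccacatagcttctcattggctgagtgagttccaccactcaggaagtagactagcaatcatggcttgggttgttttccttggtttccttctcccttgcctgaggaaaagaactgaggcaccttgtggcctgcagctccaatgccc

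The table held promoters for 8 of the 10 genes, 12 in all; those of Fabp4 and Lpl were not used here. A match with at most 2 mismatches stood in the 250 bases before the start of 3 of the 12: in Fabp1 from -67 to -55 with 1 mismatch, in Cd36 from -63 to -51 with 2, and at the downstream start of Lipc from -22 to -10 with 2, each on the opposite strand, with positions counted from the RefSeq start. Over all 32851 promoters of the table, 3.24% held such a match and 0.484% held one with at most 1 mismatch. The exact single unit AGGTCA, which overlaps the repeat searched for, was found in 6 of the 12 promoters and in 14% of all promoters. A match of letters does not show binding, and its absence from this window, as in Fabp2, says nothing of the receptor.

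Cd36, a fatty acid translocase and scavenger receptor (chr5:17781690-17888801, GRCm38), was the gene with the largest fold change, 3.74-fold higher in MCD than in BD livers. It had 414, 225, 209, 346 and 196 CPM in MCD livers and 149, 442, 58.3, 73.9 and 124 CPM in HFD livers. BD livers had 94.3, 69.2, 97.7, 51.6 and 60.4 CPM. All 5 MCD libraries lay above all 5 BD libraries, while HFD replicate 2 exceeded every MCD library and HFD replicates 3 and 4 lay among the BD libraries. The means were 278 ± 96.7 CPM on MCD, 169 ± 157 CPM on HFD and 74.6 ± 20.5 CPM on BD (SD, n = 5 each), and the CV over HFD libraries was 92.4%, against 34.8% over MCD and 27.4% over BD libraries. MCD exceeded BD by a log2 fold change of 1.90 ± 0.49 (SE, edgeR adjusted p = 0.0151). That call was lost with the log2 ratio of non-unique alignments to gene counts as a covariate (log2 fold change 1.19, adjusted p = 0.0638, with 2.14e-04 to 0.0638 over 25 alternatives). Those alignments numbered 1.19 to 1.66 per gene count in MCD, 1.15 to 2.53 in HFD and 1.49 to 2.80 in BD libraries.

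HFD against BD gave Cd36 a log2 fold change of 1.19 ± 0.49, which did not pass (adjusted p = 0.186; 95% interval 0.14 to 2.25). Without HFD replicate 2 it gave 0.46 (adjusted p = 0.494; 0.097 to 0.514 over 25 alternatives). MCD against HFD gave 0.71 ± 0.48 (adjusted p = 0.431), and without HFD replicate 2 it gave 1.46 (adjusted p = 0.0114; 0.0111 to 0.676 over 25 alternatives). That library had the highest Cd36 of all 15, and its summed macrophage markers were 716 CPM, against 414 to 517 CPM in the other HFD libraries. Its stellate and fibroblast (564 CPM), Kupffer cell (373 CPM), adipocyte (4553 CPM) and enterocyte (4867 CPM) sums were also the highest of HFD. Its hepatocyte (116420 CPM), endothelial (406 CPM) and pancreas (7.65 CPM) sums were the lowest. The enterocyte sum on HFD was 79.0% Apoa4 and 20.9% Mttp, which hepatocytes also make, so it does not measure intestinal cells. The adipocyte sum on HFD was 97.5% Car3, which liver also makes. In BD, replicate 5 had the highest macrophage sum (449 CPM) with Cd36 at 60.4 CPM. The part of these cell types was not tested.

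Slc27a2, which takes up long-chain fatty acids and activates very long ones, rose on HFD, whereas Slc27a4, a widely expressed member of the same family, was called in none of the 3 comparisons. Slc27a2 had 1404, 1719.9, 1773, 1738 and 1678 CPM in MCD livers and 1748, 1943, 2016, 2197 and 1934 CPM in HFD livers. BD livers had 1522, 1323, 1506, 959 and 1629.8 CPM. The 5 HFD libraries lay above the 5 BD libraries, the MCD libraries lay between and overlapped both, and MCD replicate 1 and BD replicate 4 were low within their diets. HFD exceeded BD by a log2 fold change of 0.50 ± 0.12 (adjusted p = 0.0159), a 1.42-fold difference. MCD against BD came to 0.26 ± 0.12 (adjusted p = 0.142), which passed only when libraries were scaled by their totals (log2 0.40, adjusted p = 0.0171; 0.0171 to 0.299 over 25 alternatives), and MCD against HFD to -0.24 ± 0.12 (adjusted p = 0.277). The exons of Slc27a2 share 419 bases with the antisense transcript Gm26697, and the strand setting of the counting is not given, so reads of the pair cannot be told apart.

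Slc27a4 had 43.9, 44.7, 44.7, 45.6 and 44.8 CPM in MCD livers and 48.5, 54.3, 34.6, 42.7 and 42.9 CPM in HFD livers. BD livers had 42.02, 48.3, 46.04, 41.8 and 32.1 CPM. The MCD libraries were within 2 CPM of each other and inside the range of both other diets. Its log2 fold changes were 0.09 ± 0.12 in MCD against BD (95% interval -0.15 to 0.34), 0.09 ± 0.12 in HFD against BD (-0.15 to 0.34) and -0.0025 ± 0.115 in MCD against HFD (-0.24 to 0.24).

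**Figure D2:**
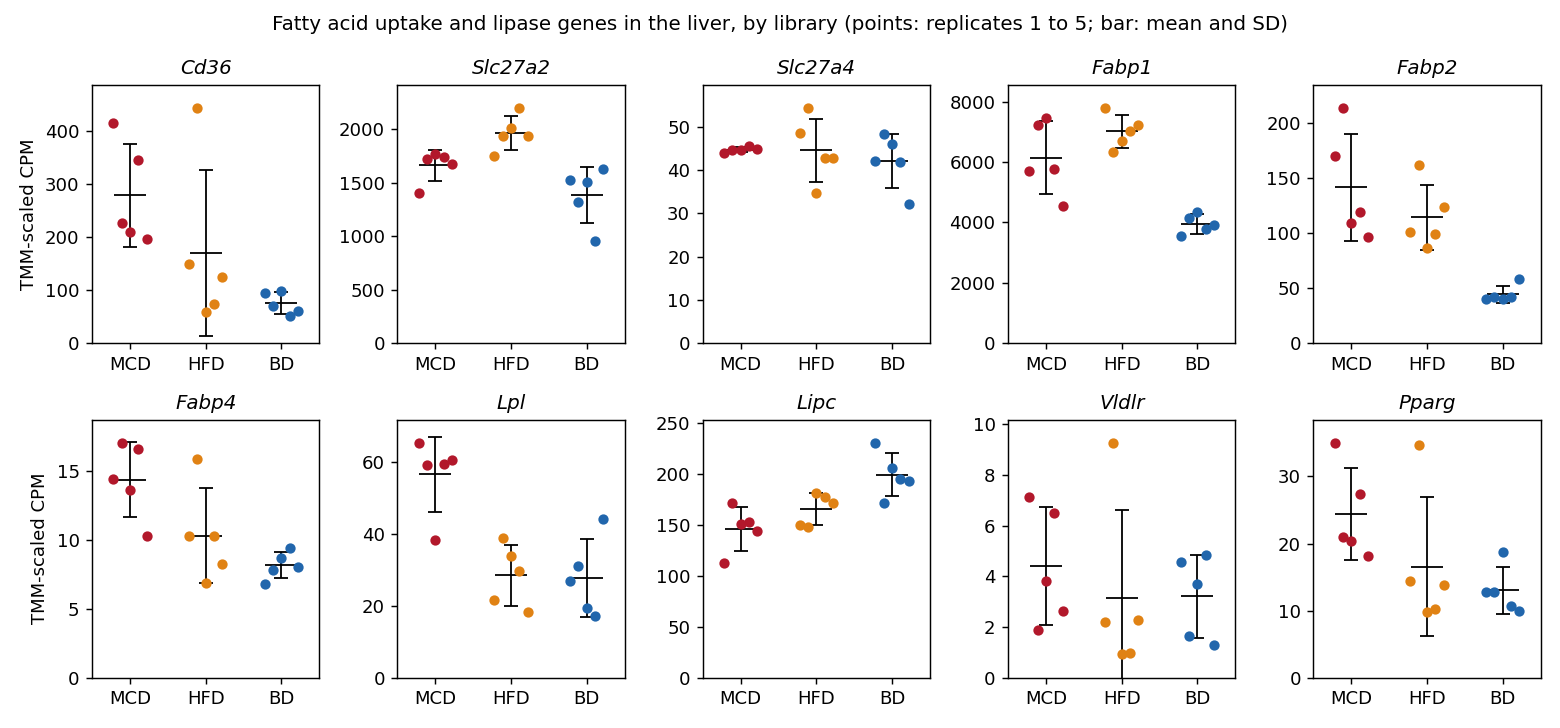
TMM-scaled CPM (linear axis from 0) of each gene is shown for the 5 MCD, 5 HFD and 5 BD libraries, with replicates 1 to 5 from left to right as points and the mean and SD as bars; the lower SD bar of Vldlr in HFD is clipped at 0. Fabp1 and Fabp2 of MCD and HFD lie clear of BD, and HFD replicate 2 is the high point of Cd36 (442 CPM), Vldlr (9.25 CPM) and Pparg (34.6 CPM).

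The 3 binding proteins were higher in MCD than in BD livers, and Fabp1 and Fabp2 were higher in HFD than in BD livers as well. Fabp1, the abundant liver form (chr6:71199827-71205023), had 5716, 7228, 7481, 5766 and 4535 CPM in MCD livers and 7789, 6348, 6708, 7051 and 7234 CPM in HFD livers. BD livers had 3545, 4150.4, 4363, 3772 and 3927 CPM. Every MCD and HFD library exceeded every BD library, and the MCD and HFD libraries overlapped. Against BD its log2 fold change was 0.64 ± 0.12 in MCD (adjusted p = 9.70e-04) and 0.83 ± 0.12 in HFD (adjusted p = 2.30e-04), that is 1.56-fold in MCD and 1.78-fold in HFD. MCD against HFD gave -0.19 ± 0.12 (adjusted p = 0.382; 95% interval -0.44 to 0.06).

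Fabp2, named for the intestine (chr3:122895072-122899506), showed larger fold changes than Fabp1 against BD from a far lower level. It had 169.9, 213, 109, 119 and 96.6 CPM in MCD livers and 101, 162, 86.3, 99.04 and 123 CPM in HFD livers. BD livers had 40.03, 41.7, 40.1, 41.8 and 58.04 CPM. The lowest MCD and the lowest HFD library were both above the highest BD library, which was BD replicate 5, itself well above the other BD libraries. Mean levels were 142 ± 48.9 CPM on MCD, 114 ± 29.6 CPM on HFD and 44.3 ± 7.71 CPM on BD (SD, n = 5 each). MCD exceeded BD by a log2 fold change of 1.67 ± 0.22 (adjusted p = 9.80e-05) and HFD exceeded BD by 1.36 ± 0.22 (adjusted p = 0.00103), while MCD against HFD came to 0.31 ± 0.21 (adjusted p = 0.438). Per 100 Fabp1 counts there were 2.31 ± 0.648 Fabp2 counts in MCD, 1.65 ± 0.530 in HFD and 1.13 ± 0.213 in BD libraries (SD, n = 5 each), with overlapping ranges (1.45 to 2.97 in MCD, 1.29 to 2.55 in HFD and 0.919 to 1.48 in BD). Intestinal cells in the sample were looked for with 10 enterocyte markers: Sis and Cdx1 had 0 counts on every diet, Alpi, Lct, Cdx2 and Rbp2 had 0 to 6 counts per diet, and Vil1 had 24 to 36. Their summed level was 1699 to 2001 CPM in MCD, 1628 to 4867 CPM in HFD and 531 to 651 CPM in BD livers, mostly Apoa4 and Mttp, which hepatocytes also make.

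Apoa4, an apolipoprotein of intestine and of fatty liver, rose with Fabp2, at 1504 ± 126.1 CPM in MCD and 2077 ± 1426 CPM in HFD, against 115 ± 49.2 CPM in BD livers (SD, n = 5 each). Its log2 fold change was 3.71 ± 0.42 in MCD against BD (adjusted p = 5.98e-05) and 4.17 ± 0.43 in HFD against BD (adjusted p = 4.20e-05). Slc5a1, the intestinal glucose transporter, was higher in MCD than in BD livers (1.20 ± 0.29, adjusted p = 0.00629), a call lost with counts thinned to the shallowest library (adjusted p = 0.599). Mttp, which loads lipid onto apolipoprotein B, was lower in MCD than in HFD livers (-0.45 ± 0.09, adjusted p = 0.016), which did not pass without HFD replicate 4 (0.0586), with the covariate (0.0884) or with thinned counts (0.0641).

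Fabp4, the adipocyte and macrophage form, had 14.4, 17.03, 13.6, 16.6 and 10.3 CPM in MCD livers and 10.3, 15.9, 6.87, 10.3 and 8.23 CPM in HFD livers. BD livers had 6.81, 7.84, 8.71, 9.38 and 8.07 CPM. All MCD libraries exceeded all BD libraries by a small margin, and HFD replicate 2 lay among the MCD libraries. The other HFD libraries spread from the BD range up to the lowest MCD library. MCD exceeded BD by a log2 fold change of 0.80 ± 0.19 (adjusted p = 0.00416), which did not pass after thinning all libraries to the depth of the shallowest (0.78, adjusted p = 0.163; 3.49e-04 to 0.163 over 25 alternatives). HFD against BD gave 0.35 ± 0.19 (adjusted p = 0.324) and MCD against HFD 0.45 ± 0.18 (adjusted p = 0.164), the last of which passed without HFD replicate 2 (0.67, adjusted p = 0.0142; 0.0142 to 0.836 over 25 alternatives). Over the single libraries left out, HFD against BD ranged from 0.16 to 0.46. Adipose tissue in the sample was looked for with 10 adipocyte markers: Adipoq, Plin1, Lep and Retn had 0 to 2 counts over the 5 libraries of each diet, and Slc2a4 had 20 in MCD, 20 in HFD and 6 in BD. Cfd, adipsin, had 4.06 ± 2.23 CPM in MCD and 6.296 ± 7.36 CPM in HFD, against 0.811 ± 0.7104 CPM in BD livers (SD, n = 5 each). Its log2 fold changes against BD, 2.40 ± 1.08 in MCD (adjusted p = 0.138) and 3.03 ± 1.07 in HFD (adjusted p = 0.124), did not pass. The list summed to 4390.1 to 6544 CPM in MCD, 3564 to 4553 CPM in HFD and 5720.0 to 6640.4 CPM in BD livers, of which 97.5% to 98.7% was Car3, which liver also makes.

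The 2 lipases moved in opposite directions in MCD livers. Lpl, lipoprotein lipase (chr8:68880491-68907448), had 65.1, 58.97, 38.3, 59.4 and 60.4 CPM in MCD livers and 21.6, 38.7, 33.6, 29.7 and 18.3 CPM in HFD livers. BD livers had 26.97, 30.96, 19.3, 17.1 and 44.2 CPM. MCD replicate 3 was the low library of its diet and lay inside the HFD and BD ranges; the other 4 MCD libraries were above all HFD and BD libraries. MCD exceeded BD by a log2 fold change of 1.01 ± 0.25 (adjusted p = 0.00935), 2.01-fold, and exceeded HFD by 0.99 ± 0.25 (adjusted p = 0.0443), 1.99-fold. HFD against BD gave 0.01 ± 0.26 (adjusted p = 0.984; 95% interval -0.53 to 0.56), and its sign turned without HFD replicate 2 (adjusted p = 0.877).

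The call of Lpl between MCD and HFD lies near the threshold. Its adjusted p was 0.11, 0.0781, 0.0941 and 0.0778 without MCD replicate 1, 2, 4 and 5, and 0.0905, 0.0713, 0.114 and 0.105 without HFD replicate 1, 3, 4 and 5. Without BD replicate 1 or 2, which enter through the shared spread, it was 0.0506 or 0.0552, and without HFD replicate 2 it was 0.0114. Its adjusted p ran from 0.00271 to 0.194 over 25 alternatives. Over the single libraries left out, the log2 fold change stayed between 0.87 and 1.15.

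Lipc, hepatic lipase (chr9:70798128-70952226), had 112, 172, 151, 153 and 144 CPM in MCD livers and 150.1, 148, 181, 178 and 172 CPM in HFD livers. BD livers had 231, 172, 206, 196 and 194 CPM. The highest MCD library lay just below the lowest BD library, and the HFD libraries overlapped both diets. MCD was lower than BD with a log2 fold change of -0.45 ± 0.11 (adjusted p = 0.00621), 0.734 of the BD level. HFD against BD gave -0.27 ± 0.11 (adjusted p = 0.167) and MCD against HFD -0.18 ± 0.11 (adjusted p = 0.369), and neither passed. The counts of Lpl per 100 counts of Lipc were 39.7 ± 11.97 in MCD, 17.3 ± 5.74 in HFD and 14.1 ± 6.07 in BD libraries (SD, n = 5 each). They ranged from 25.3 to 57.9 in MCD, from 10.7 to 26.1 in HFD and from 8.72 to 22.8 in BD libraries, so that MCD was clear of BD and touched HFD at the library HFD replicate 2.

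Vldlr, the very low density lipoprotein receptor, was the least abundant of the 10 genes and no comparison of it passed. It had 7.12, 1.87, 3.803, 6.500 and 2.64 CPM in MCD livers and 2.19, 9.25, 0.948, 0.966 and 2.29 CPM in HFD livers. BD livers had 4.54, 1.65, 3.71, 4.83 and 1.27 CPM. The diets overlapped throughout, and HFD replicate 2 was the highest of the 15 libraries. Its log2 fold change was 0.63 ± 0.60 in MCD against BD (95% interval -0.66 to 1.92), 0.13 ± 0.64 in HFD against BD (-1.24 to 1.501) and 0.50 ± 0.58 in MCD against HFD (-0.75 to 1.75). The direction in HFD against BD turned without HFD replicate 2 (-0.87, adjusted p = 0.445; 0.445 to 0.996 over 25 alternatives), and MCD against HFD came to 1.52 (adjusted p = 0.0635; 0.0635 to 0.905 over 25 alternatives). A count of 3 was worth 0.118 to 0.852 CPM, so the lowest values of Vldlr rest on few reads.

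Pparg (chr6:115360951-115490399) had 34.96, 20.97, 20.4, 27.3 and 18.1 CPM in MCD livers and 14.3, 34.6, 9.72, 10.2 and 13.8 CPM in HFD livers. BD livers had 12.8, 12.8, 18.8, 10.7 and 10.004 CPM. The MCD libraries were above the BD libraries except that BD replicate 3 lay within the MCD range, and HFD replicate 2 was near the highest MCD library while the other HFD libraries lay in or just below the BD range. MCD against BD gave a log2 fold change of 0.91 ± 0.32, which missed the threshold (adjusted p = 0.0555). Over 25 alternatives its adjusted p ran from 0.00252 to 0.336, and it passed in 9 of them: with DESeq2 (adjusted p = 0.0122), with limma-voom (0.0314), without TMM factors (0.0304), in a fit of only these diets (0.00551), without HFD replicate 2 (0.00252), 3 (0.0471) or 4 (0.0443), without BD replicate 3 (0.0392), and with both HFD replicate 2 and MCD replicate 3 left out (0.00269). HFD against BD gave 0.36 ± 0.33 (adjusted p = 0.604), and without HFD replicate 2 the sign turned (-0.10). MCD against HFD gave 0.55 ± 0.31 (adjusted p = 0.345), and 1.03 without that library (adjusted p = 0.0067; 0.00575 to 0.881 over 25 alternatives).

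Level per length, that is CPM per kb of the longest coding transcript, differed widely between the genes. Fabp1 was highest on every diet, with means of 11112 CPM per kb in MCD, 12705 in HFD and 7145 in BD livers, followed by Slc27a2 with 569.8 CPM per kb in MCD, 674 in HFD and 476 in BD livers. Vldlr was lowest, at 0.550 in MCD, 0.393 in HFD and 0.402 in BD livers, and did not overlap its nearest neighbour on any diet. In MCD livers Fabp2 (147 CPM per kb), Cd36 (81.8) and Lipc (76.2) came next, and neighbours among these 3 overlapped in their range over libraries. In HFD livers the order was Fabp2 (118), Lipc (86.4) and Cd36 (49.9), again with overlapping neighbours. In BD livers Lipc (104) stood above Fabp2 (45.9) and Fabp2 above Cd36 (21.96), without overlap. Below these, Fabp4, Slc27a4, Pparg and Lpl lay between 11.04 and 16.03 CPM per kb in MCD, 6.901 and 11.5 in HFD, and 6.12 and 10.4 in BD livers, and neighbours in that part of the order overlapped. With the exons of all transcripts merged, a length tried after seeing the data, Fabp4 stood at 3.2 CPM per kb in MCD, 2.296 in HFD and 1.82 in BD livers and came after Slc27a4, Pparg and Lpl on each diet, while the places of Fabp1, Slc27a2 and Vldlr were kept.

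**Figure D3:**
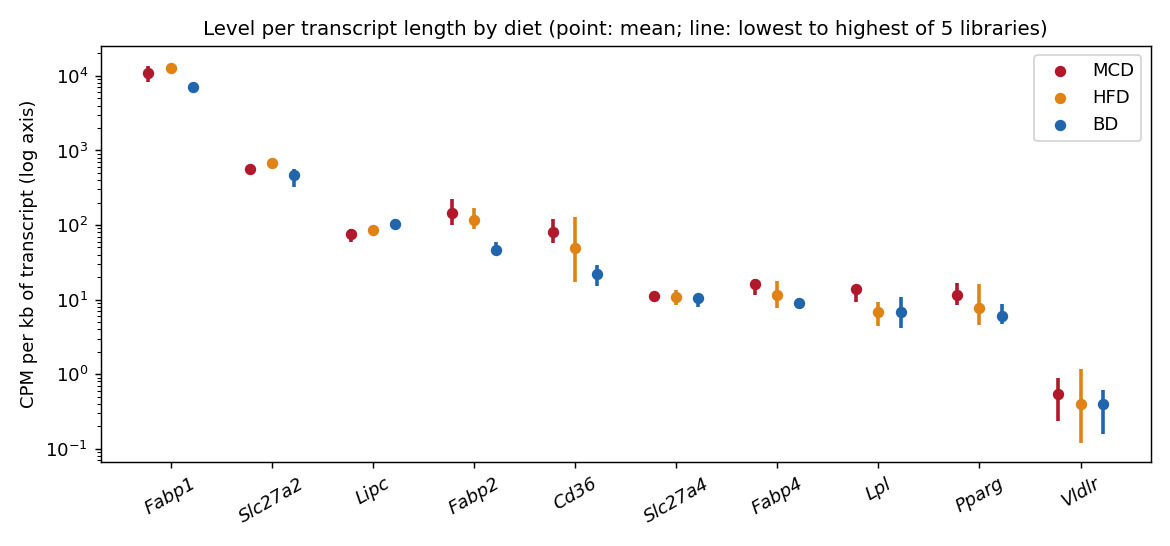
CPM per kb of the longest coding transcript is plotted on a log axis for each gene and diet (point, mean; line, lowest to highest of 5 libraries), in the order MCD, HFD, BD. Fabp1 lies highest on all diets and Vldlr lowest; Lipc is the gene whose BD point lies above its MCD point.

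Other genes of fatty acid entry and activation changed in both directions. Of 13 such genes tested, 2 were called higher and 2 lower in MCD against BD, 1 higher and 1 lower in HFD against BD, and 0 higher and 2 lower in MCD against HFD, with list medians of -0.14, 0.10 and -0.18 on the log2 scale. Over all genes tested, 21.4%, 6.92% and 3.15% were called in these comparisons. Mfsd2a, a transporter of lysophospholipids with long fatty acids, averaged 132 ± 62.3 CPM in MCD and 132 ± 47.97 CPM in HFD, against 8.47 ± 4.48 CPM in BD livers (SD, n = 5 each), with log2 fold changes of 3.93 ± 0.44 in MCD (adjusted p = 6.22e-05) and 3.94 ± 0.44 in HFD (adjusted p = 1.04e-04) against BD. Slc27a5, the liver transporter that also activates bile acids, was lower than BD in MCD (-0.52 ± 0.09, adjusted p = 4.77e-04) and in HFD (-0.35 ± 0.09, adjusted p = 0.0247). The HFD call was lost without HFD replicate 1 (0.0543), HFD replicate 2 (0.0569), BD replicate 1 (0.0594) or BD replicate 3 (0.0757), and with thinned counts (0.0794). Acsl1, the main acyl-CoA synthetase of liver, was lower in MCD than in HFD livers (-0.49 ± 0.10, adjusted p = 0.0135) and than in BD livers (-0.39 ± 0.10, 0.00714). The first was lost without HFD replicate 4 (0.054) and with non-unique alignments as a covariate (0.0682), and the second without TMM factors (0.0687).

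Fabp5, the epidermal binding protein, averaged 5.54 ± 2.11 CPM in MCD, 28.8 ± 14.7 CPM in HFD and 10.8 ± 2.15 CPM in BD livers (SD, n = 5 each). MCD was lower than HFD (log2 -2.35 ± 0.46, adjusted p = 0.0181), while MCD against BD (-0.96 ± 0.47, 0.172) and HFD against BD (1.38 ± 0.45, 0.0906) did not pass. Its HFD libraries ranged from 3.68 to 41.7 CPM. The call was lost without MCD replicate 1 (0.0514), MCD replicate 4 (0.0523) or HFD replicate 4 (0.0586), with limma-voom (0.094), with only these diets in the fit (0.0677) and with the covariate (0.132). The number of carrier genes called fell to 1 in HFD against BD without HFD replicate 1, BD replicate 1 or BD replicate 3. In MCD against HFD it became 4 without HFD replicate 2, 1 without MCD replicate 1 or 4, and 0 without HFD replicate 4.

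Among 28 tested partners of the lipases and genes of lipoprotein clearance, 3 were called higher and 4 lower in MCD against BD, 3 higher and 2 lower in HFD against BD, and 1 higher in MCD against HFD, with list medians of -0.12, -0.01 and -0.14. The shares of all genes called were 21.4%, 6.92% and 3.15% in these comparisons. Apoc2, the cofactor that Lpl needs, was higher than BD in MCD (1.02 ± 0.15, adjusted p = 1.16e-04) and in HFD (0.97 ± 0.15, adjusted p = 3.13e-04), with 381 ± 38.1 CPM in MCD, 369 ± 117 CPM in HFD and 188 ± 8.16 CPM in BD livers (SD, n = 5 each). Lipg, endothelial lipase, averaged 33.8 ± 8.098 CPM in MCD and 43.6 ± 10.9 CPM in HFD, against 14.3 ± 7.22 CPM in BD livers (SD, n = 5 each). It was higher than BD in MCD (log2 1.24 ± 0.28, adjusted p = 0.00496) and in HFD (1.61 ± 0.28, 0.00244). Sdc1, a heparan sulfate proteoglycan that clears remnants in liver, was lower than BD in MCD (-0.68 ± 0.16, adjusted p = 0.00431) and in HFD (-0.53 ± 0.16, 0.0466). The HFD call of Sdc1 lies near the threshold, and its alternatives are not given here. Gpihbp1, which carries Lpl to the capillary lumen, was higher in MCD than in HFD livers, with 21.4 ± 1.403 CPM in MCD and 15.7 ± 2.35 CPM in HFD (SD, n = 5 each; log2 0.44 ± 0.10, adjusted p = 0.031). That call was lost without MCD replicate 1 (0.0823), 4 (0.0545) or 5 (0.0555) and without HFD replicate 3 (0.0722), 4 (0.104) or 5 (0.0562). It was also lost with only these diets in the fit (0.0665), with the covariate (0.101) and with thinned counts (0.166). In this list 3 genes were called between MCD and HFD without HFD replicate 2 and 2 without MCD replicate 3. In HFD against BD the count of 5 became 3 without HFD replicate 1 or 2, or without BD replicate 1, 2 or 4.

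Targets of PPARα, the related receptor of hepatocytes, were set beside Pparg. The list of 20 tested genes held Ppara, the gene of the receptor itself, beside its targets. Of these 20, 10 were called higher in MCD against BD and 9 in HFD against BD, with 0 lower in either. Between MCD and HFD 0 were called (unadjusted p under 0.05 for 1 higher and 2 lower, 0 by DESeq2, 0 by limma-voom, and 1 called without HFD replicate 2). Ppara was among the higher genes in MCD (log2 0.62 ± 0.14, adjusted p = 0.00347) and in HFD (0.96 ± 0.14, adjusted p = 2.42e-04) against BD. The median log2 fold change of the list was 0.39 in MCD against BD, 0.38 in HFD against BD and -0.07 in MCD against HFD. At an unadjusted p under 0.05 the lower counts were 0 in MCD and 1 in HFD against BD, and DESeq2 and limma-voom called 0. Plin2, the coat protein of hepatic lipid droplets, had log2 fold changes of 0.87 ± 0.11 in MCD (adjusted p = 4.72e-05) and 1.02 ± 0.11 in HFD (adjusted p = 1.16e-05) against BD. Vnn1, a pantetheinase, rose against BD in MCD (1.93 ± 0.25, adjusted p = 9.94e-05) and in HFD (1.75 ± 0.25, 4.18e-04). Cpt1a, the entry enzyme of mitochondrial fatty acid oxidation, likewise rose against BD in MCD (0.81 ± 0.13, adjusted p = 2.32e-04) and in HFD (1.04 ± 0.13, 4.25e-05).

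Of 11 tested genes linked to PPARγ and lipid droplets, 3 were called higher and 1 lower in MCD against BD, 0 in HFD against BD (5 higher at an unadjusted p under 0.05, 4 by DESeq2, 0 by limma-voom), and 1 lower in MCD against HFD. Plin4, a droplet coat protein of adipocytes, averaged 75.1 ± 31.9 CPM in MCD and 34.1 ± 32.5 CPM in HFD, against 11.7 ± 3.84 CPM in BD livers (SD, n = 5 each), with a log2 fold change of 2.66 ± 0.53 in MCD against BD (adjusted p = 0.00313). The lower gene was Acsl1 in both comparisons. The list median was 0.32 in MCD against BD, 0.30 in HFD against BD and -0.07 in MCD against HFD. Of all genes tested, 21.4%, 6.92% and 3.15% were called in these comparisons. The count against BD was 2 in MCD without BD replicate 5 and 1 in HFD without HFD replicate 3 or 4, and in MCD against HFD it was 3 without HFD replicate 2 and 0 without HFD replicate 4.

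Lpl, Cd36, Fabp4 and Pparg are also made by macrophages, and Cd36 and Fabp4 by endothelial cells as well. In bulk liver, more cells of a type and more RNA per cell cannot be told apart. All 15 macrophage markers were called higher in MCD against BD, 4 in HFD against BD and 4 in MCD against HFD, with 0 lower (0 at an unadjusted p under 0.05, 0 by DESeq2 and 0 by limma-voom). Ctss, a lysosomal protease, had log2 fold changes of 1.21 ± 0.14 in MCD against BD (adjusted p = 1.41e-05), 0.59 ± 0.14 in HFD against BD (0.0128) and 0.62 ± 0.13 in MCD against HFD (0.0181). The last was lost without MCD replicate 1 (0.0514) or HFD replicate 3 (0.0519), 4 (0.0689) or 5 (0.0575) and with the covariate (0.0645). The HFD call of Ctss against BD was lost with thinned counts (0.161). Cd68 had 1.39 ± 0.18 in MCD (5.31e-05) and 0.96 ± 0.19 in HFD (0.00304) against BD. The HFD call of Cd68 was lost with thinned counts (0.394). Itgax, a marker of inflammatory macrophages, had 2.89 ± 0.41 in MCD against BD (1.25e-04) and 1.81 ± 0.36 in MCD against HFD (0.016). The second was lost without HFD replicate 4 (0.0623), with the covariate (0.0725) and with thinned counts (0.0555). The list median was 1.39 in MCD against BD, 0.64 in HFD against BD and 0.80 in MCD against HFD. The summed level of the list was 557 to 845 CPM in MCD, 414 to 716 CPM in HFD and 299 to 449 CPM in BD livers. MCD replicate 3, the library with the lowest Lpl of its diet, had the lowest sum of its diet, and BD replicate 5, with the highest Lpl among BD, had the highest sum among BD. HFD replicate 2 was the highest of HFD in both. HFD replicate 1, with the next highest sum of HFD (516.5 CPM), had 21.6 CPM of Lpl, below HFD replicates 3 and 4. The order was not particular to macrophages. The stellate and fibroblast sum was also lowest of MCD in replicate 3 (569 CPM), highest of BD in replicate 5 (415 CPM) and highest of HFD in replicate 2 (564 CPM). The sum of Kupffer cell markers was highest in the same BD and HFD libraries, but lowest of MCD in replicate 4 (302 CPM).

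The 4 macrophage calls between MCD and HFD became 11 without HFD replicate 2, 2 without MCD replicate 4 or 5, HFD replicate 1, or BD replicate 2 or 3, 1 without MCD replicate 1 or HFD replicate 3 or 5, and 0 without HFD replicate 4. Of 7 markers of Kupffer cells, the resident macrophages of liver, 5 were higher in MCD against BD (3 without MCD replicate 2 or BD replicate 2, 3 or 4), 1 in HFD against BD (4 without BD replicate 5) and 0 in MCD against HFD (0 at an unadjusted p under 0.05, 0 by DESeq2, 0 by limma-voom). Their summed level was 302 to 472 CPM in MCD, 283 to 373 CPM in HFD and 181 to 331 CPM in BD livers, and Cd5l, a secreted macrophage protein, had 0.95 ± 0.15 in MCD (adjusted p = 2.00e-04) and 0.66 ± 0.15 in HFD (0.0091) against BD, with Folr2 at 0.72 ± 0.17 in MCD (0.00568).

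Of 12 endothelial markers tested, 3 were higher in MCD against BD, 0 in HFD against BD (1 lower at an unadjusted p under 0.05, 0 by DESeq2, 0 by limma-voom) and 1 in MCD against HFD (2 without HFD replicate 2 or BD replicate 5). Their summed level was 492 to 559 CPM in MCD, 406 to 502 CPM in HFD and 446 to 551 CPM in BD livers. Of all genes tested, 21.4% were called in MCD against BD and 3.15% in MCD against HFD. Stab2, a sinusoidal scavenger receptor, had 0.44 ± 0.09 in MCD against BD (adjusted p = 0.00175) and 0.46 ± 0.09 against HFD (0.012; 0.144 with thinned counts), and Pecam1 0.52 ± 0.11 in MCD against BD (0.0019; 0.232 with thinned counts). Rbp7, a marker of fat and heart capillaries, had 5 counts over the 5 MCD libraries, 0 in HFD and 0 in BD libraries. Of 11 stellate and fibroblast markers tested, 10 were higher in MCD against BD, 0 in HFD against BD (4 at an unadjusted p under 0.05, 1 by DESeq2, 0 by limma-voom; 1 without MCD replicate 2 or BD replicate 5) and 5 in MCD against HFD (3 without MCD replicate 1 or HFD replicate 5, 2 without HFD replicate 4). Col1a2, a collagen chain, had 2.26 ± 0.32 (2.26e-04) and Pdgfrb 0.97 ± 0.15 (1.97e-04) in MCD against BD. In MCD against HFD they had 1.57 ± 0.31 (0.0169) and 0.85 ± 0.15 (0.00739), and Col1a2 did not pass with only these diets in the fit (0.0631) or with the covariate (0.056). The summed level of the list was 569 to 980.3 CPM in MCD, 395 to 564 CPM in HFD and 314 to 415 CPM in BD livers.

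Hepatocyte markers gave 3 lower genes of 10 in MCD against BD (5 without MCD replicate 2), 2 lower in HFD against BD and 0 in MCD against HFD (1 higher at an unadjusted p under 0.05, 0 by DESeq2, 0 by limma-voom). They were led by Cps1, a urea cycle enzyme, at -1.56 ± 0.21 in MCD (1.11e-04) and -1.18 ± 0.21 in HFD (0.00227) against BD, with Hnf4a at -0.37 ± 0.09 in MCD (0.00777; 0.0933 without TMM factors) and Tdo2 at -0.47 ± 0.09 in HFD (0.00407). Among adipocyte markers, Mest was higher in MCD against BD (0.69 ± 0.19, 0.0146; 0.277 with thinned counts) and Car3 lower in HFD against BD (-0.62 ± 0.11, 0.00136) and higher in MCD against HFD (0.46 ± 0.11, 0.0292). The last was lost without MCD replicate 1 or 4 or HFD replicate 1, 3 or 4 (0.0568 to 0.0828), with only these diets in the fit (0.0685) and with the covariate (0.11). Of 8 pancreas markers only Cela1 was tested, lower in MCD (-1.15 ± 0.21, 8.20e-04) and in HFD (-0.73 ± 0.21, 0.0439) against BD. The HFD call was lost without any 1 of 11 libraries, namely MCD replicate 3 or 5, HFD replicate 1, 2, 3 or 5, or any BD replicate (0.0571 to 0.115), without a count filter (0.0524) and with thinned counts (0.324). Prss1, Pnlip, Cpa1, Amy2a5 and Cel had 0 counts on every diet, Ctrb1 had 0 or 1, and Cela2a had 9 in MCD, 10 in HFD and 33 in BD libraries. The list summed to 8.86 to 16.7 CPM in MCD, 7.65 to 19.2 CPM in HFD and 21.3 to 31.4 CPM in BD livers. The part of other cell types in the differences of Lpl, Cd36, Fabp4 and Pparg was not tested.

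**Figure D4:**
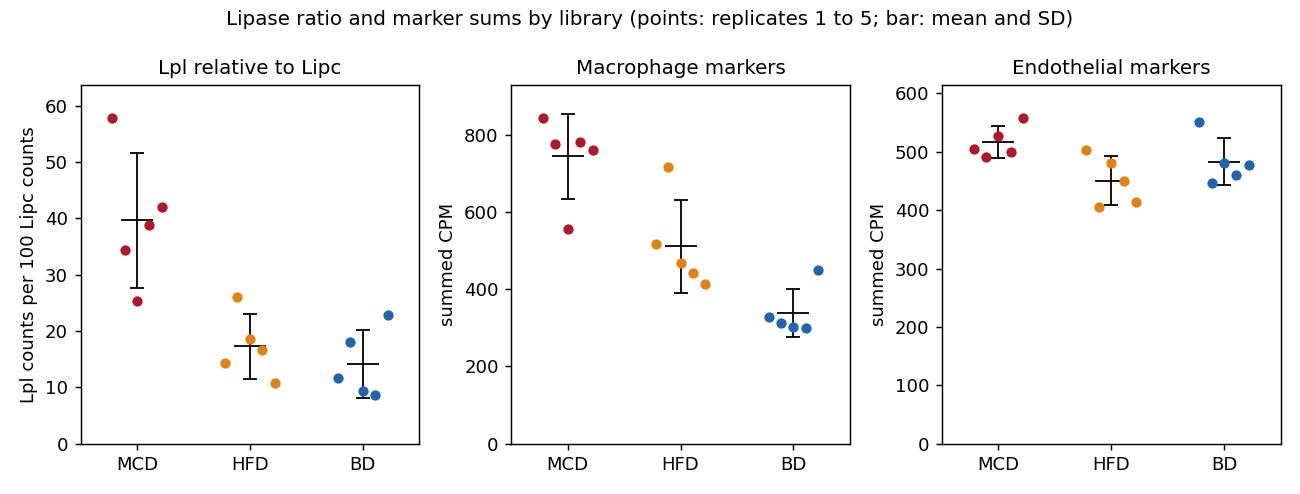
Lpl counts per 100 Lipc counts (left) and the summed CPM of 15 macrophage markers (middle) and 13 endothelial markers (right) are plotted for the 5 libraries of MCD, HFD and BD (points, replicates 1 to 5 from left to right; bars, mean and SD; axes from 0). MCD lies highest in the left and middle panels, except that HFD replicate 2 lies above MCD replicate 3 in both. The endothelial sums of the 3 diets overlap.

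For the 3 genes with the largest fold changes, the genes nearest in pattern over the 15 libraries were found by the mean absolute difference of centred log2 CPM, as a description. Nearest to Cd36 were Lgals1 (0.238), Agpat9 (0.257) and Car2 (0.266), where the mean absolute deviation of Cd36 from its own mean was 0.895. Lgals1, galectin-1, had 65.2 ± 16.5 CPM in MCD, 37.9 ± 34.9 CPM in HFD and 21.3 ± 5.55 CPM in BD livers (SD, n = 5 each), and like Cd36 it spread most among the HFD libraries. Nearest to Fabp2 were Cdc25b (0.2302), Sult1c2 (0.263) and Slc20a1 (0.271), against 0.661 for Fabp2 itself; Slc20a1, a phosphate transporter, had 75.3 ± 9.899 CPM in MCD, 63.98 ± 11.8 CPM in HFD and 26.4 ± 7.66 CPM in BD livers (SD, n = 5 each). Nearest to Lpl were Pla2g7 (0.1999), Ccdc80 (0.2195) and Slc37a2 (0.222), against 0.5401 for Lpl; Pla2g7, a lipoprotein-associated phospholipase of macrophages, had 6.54 ± 1.36 CPM in MCD, 3.07 ± 1.12 CPM in HFD and 2.900 ± 1.25 CPM in BD livers (SD, n = 5 each). All 15 libraries share the diet contrast, which these distances include.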

How the data were processed

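Polyadenylated RNA of mouse liver was counted per gene in 15 libraries. The authors deposited whole-number counts per gene symbol, 1 table per library. The tools were Trimmomatic, TopHat2 (2.0.13), HTSeq and DESeq2 with GRCm38/mm10, per the submitters' processing notes. How HTSeq treated strand, and with which annotation, is not given in the sources used here, so overlapping and antisense genes are uncertain.

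Rows that name no gene were left out of totals and tests; reads in no feature were 12.7% to 17.0% of reads with a unique position. The test was edgeR 4.0.16 (R 4.3.3) in 1 fit over the 3 diets: TMM factors, filterByExpr (minimum count 10, minimum total 15), a robust quasi-likelihood F test (two-sided) and Benjamini-Hochberg adjustment over 12193 genes, called under 0.05; the common biological coefficient of variation was 0.176. Every adjusted p in the text is from this test unless another tool is named. Errors of log2 fold changes are SE. CPM values are scaled to TMM-adjusted library totals, and 3 counts were worth 0.118 to 0.852 CPM, for counting error only. Each replicate pair differed by more than sampling noise (chi-square over its degrees of freedom 6.89 to 61.1), and all 15 were kept as separate libraries.

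Alternatives were DESeq2 1.42.0, limma-voom (limma 3.58.1), RLE scaling, library totals, no filter, a stricter filter, fits of only the diets compared, a covariate for non-unique alignments, thinned counts, and libraries left out; a length from merged exons was added after seeing the data. Transcript lengths and positions are from GENCODE M21 (GRCm38). Promoters are from RefSeq; protein sequences were not used here.

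The members and gene lists were chosen with earlier results of these data known. Genes named are the members, the 2 called genes with the smallest p of each other list and comparison, and the 3 nearest patterns of the 3 members with the largest fold change. Apoa4, Acsl1 and Rbp7 follow from the list rules, while Alpi, Lct, Cdx2 and other marker genes at or near 0 are named as defining markers. Ppara is named because the list of its targets holds it.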

Additional observations from a re-analysis of the deposited data

Results flagged for a closer look

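Each gene was examined within each diet for a library whose gap to its nearest neighbour exceeded Dixon's 95% critical value for 5 samples (0.710 of the range). Of 30 groups of 5 libraries, 6 held such a library; chance gives about 1 in 20 groups. HFD replicate 2 was the high library for Cd36, with 442 CPM and the next at 149 CPM, for Vldlr, with 9.25 CPM and the next at 2.29 CPM, and for Pparg, with 34.6 CPM and the next at 14.3 CPM. Fabp2 had 58.04 CPM in BD replicate 5, and the next BD library had 41.8 CPM. Slc27a2 was lowest in MCD replicate 1, with 1404 CPM and the next at 1678 CPM. Lpl was lowest in MCD replicate 3, with 38.3 CPM and the next at 58.97 CPM. HFD replicate 2 was also the highest HFD library for Fabp2, Fabp4, Slc27a4 and Lpl and the lowest for Fabp1 and Lipc. The causes were not tested.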

How the results depend on the processing

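No paired analysis was possible because the replicate numbers were given in accession order and link no libraries across diets. Of 30 tests of the 10 genes under 25 alternatives each, 15 kept direction and call throughout; of 750 values in all, 690 kept both, 15 lost the call, 16 gained one and 29 changed sign, all 29 in tests that were not called. Sign changes were, in MCD against BD with the covariate, -0.077 for Slc27a4 and -0.50 for Vldlr; in HFD against BD, -0.17 for Vldlr with limma-voom, -0.33 with the covariate and -0.30 with thinned counts; in MCD against HFD, -0.17 for Vldlr with the covariate, and for Slc27a4 0.070 without TMM factors, 0.0065 without a filter and 0.0015 with the stricter one. Without HFD replicate 2 and MCD replicate 3 together they were -0.13 for Lpl, -0.87 for Vldlr and -0.11 for Pparg in HFD against BD and 0.08 for Slc27a4 in MCD against HFD. With each library left out in turn, Slc27a4 in MCD against HFD ranged from -0.066 to 0.091, and in HFD against BD Lpl ranged from -0.12 to 0.27, Vldlr from -0.87 to 0.44 and Pparg from -0.10 to 0.55. Calls over all genes, 844 in HFD against BD, 2610 in MCD against BD and 384 in MCD against HFD, became 424, 1056 and 79 with thinned counts, which test fewer genes at less depth; in MCD against HFD they became 701 with DESeq2, 224 with only those diets in the fit, 82 with the covariate and 1365 without HFD replicate 2 and MCD replicate 3. Leaving out each library in turn gave 569 to 974, 1938 to 2809 and 74 to 1248. The count of the 10 genes called in MCD against HFD, 1, became 0 without a filter, with the covariate or with thinned counts, 4 without HFD replicate 2 and MCD replicate 3, and ranged from 0 to 4 over single libraries left out; the cause was not tested. Scaling by library totals moved the median of all genes in MCD against BD by 0.14 and its calls from 1557 higher and 1053 lower to 2308 and 512; in HFD against BD 445 and 399 became 589 and 297, and in MCD against HFD 271 and 113 became 411 and 67. Of 975 values of counts over the other lists, 849 stayed within 1.5 times of the one reported, and of 1250 values of named list genes 65 lost the call, with thinned counts those of Cd68 and Ctss in HFD against BD, of Pecam1, Mest and Slc5a1 in MCD against BD, and of Stab2 and Gpihbp1 in MCD against HFD among them. Allowing 1 mismatch in place of 2 left 1 of the 3 promoter matches. Vldlr, at a few CPM, is limited by depth.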
